A study of Mus musculus with 4 samples.

Results

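Egr1 RNA was detected in 290 of the 771 analysed spots of a mouse heart section taken 7 days after cryoinjury, and these 290 spots were compared with the 481 spots of the same section in which it was not detected. The section belongs to a series of 4 sections with 2879 analysed spots, and the 771 spots analysed here are those with at least 2500 unique molecular identifiers (UMIs, each counting 1 captured RNA molecule). A spot was called Egr1-detected when its full counts held at least 1 Egr1 UMI and undetected when they held 0. The groups were thus chosen by the Egr1 counts themselves, whose values describe them and support nothing else. All other genes were compared after each spot had been thinned at random to 2500 UMIs, so that deeper spots did not weigh more. Values with all UMIs, without thinning, are also given where marked.

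In the Visium assay a thin tissue slice lies on barcoded spots that catch its RNA, and each spot covers several cells or parts of cells. All sections were cut from hearts of ICR mice, an outbred strain, in which a cooled probe had been held to the left ventricle's apex for 5 seconds at postnatal day 1. Sections were taken 1, 4, 7 and 14 days later (d1, d4, d7 and d14), 1 at each time, and the labels name no uninjured heart. The Egr1-detected and the undetected spots of d7 thus share the animal, its genotype, the injury and the section, and no genetic or drug change of Egr1 is labelled in any of them. With 1 section, spots are neighbours in 1 heart and not replicates, so no p-value is given. Intervals are exact 95% intervals that cover counting error only.

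Egr1 is a zinc finger transcription factor and a classic immediate early gene, switched on within minutes of serum, growth factors, stretch or injury through serum response factor and the mitogen-activated protein kinase pathway, and its RNA is short-lived. It is induced together with Fos, Jun, Ier2, Nr4a1 and similar genes, binds GC-rich motifs in promoters, and is restrained by the corepressors Nab1 and Nab2. In the heart it is known as a gene of stress and growth stimuli. The series title ties it to regenerative senescence and to cardiac repair.

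The Egr1 signal was sparse. The 771 spots held 387 Egr1 UMIs: 217 spots had 1, 52 had 2, 18 had 3 and 3 had 4, the highest count. Most detected spots thus rested on a single molecule. The detected share was 37.6% (34.2 to 41.1), and only 106 spots, 13.7% (11.4 to 16.4), kept an Egr1 UMI once all were thinned to 2500. A spot without an Egr1 UMI is not a spot without Egr1 RNA. The detected spots had a median of 8345 UMIs and the undetected spots 7771. At equal depth the groups were alike in overall quality, with a median of 1204.5 genes per detected spot and 1205 per undetected spot, and with 11.3% mitochondrially encoded UMIs in both.

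Detection followed depth in part. In 3 equal bins of 257 spots by total UMIs, Egr1 was detected in 33.1% of the shallow spots (2555 to 7059 UMIs), 33.1% of the middle spots (7075 to 8973) and 46.7% of the deep spots (8983 to 17543). After thinning the order changed: the shallow spots had the largest share, 19.8% (15.1 to 25.3), the middle spots 8.56% (5.44 to 12.7) and the deep spots 12.8% (9.01 to 17.6). Every gene below was therefore also read within the 3 bins.

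The detected spots were spread over the whole section's expression types. Clustering of the d7 spots gave 9 clusters, and each held detected spots, from 25.1% (18.8 to 32.4) of the 167 spots of cluster 1 to 49.5% (39.2 to 59.8) of the 97 spots of cluster 3. Cluster 3 was led by Myl1, Nppa, H19, Clu, Thbs3 and Igf2, and at 2500 UMIs it also had the largest share, 28.9% (20.1 to 39.0), against 7.78% to 16.8% in the other clusters. Its Egr1 level was 105 CPM (UMIs per 1000000 UMIs; 81.5 to 133), and that of cluster 1 was 47.4 CPM (35.4 to 62.1). Cluster 7, the 53 spots with the most RNA of the injury list of matrix and macrophage genes, led by Wfdc18, Osr1, Ccn5, Ltbp2, Col12a1, Tnc and Eln, did not stand out in Egr1, with 35.8% of spots detected (23.1 to 50.2) and 62.0 CPM (38.9 to 93.9). The defining genes of a cluster are not results here, and clusters are expression types without a mapped place.

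**Figure D1:**
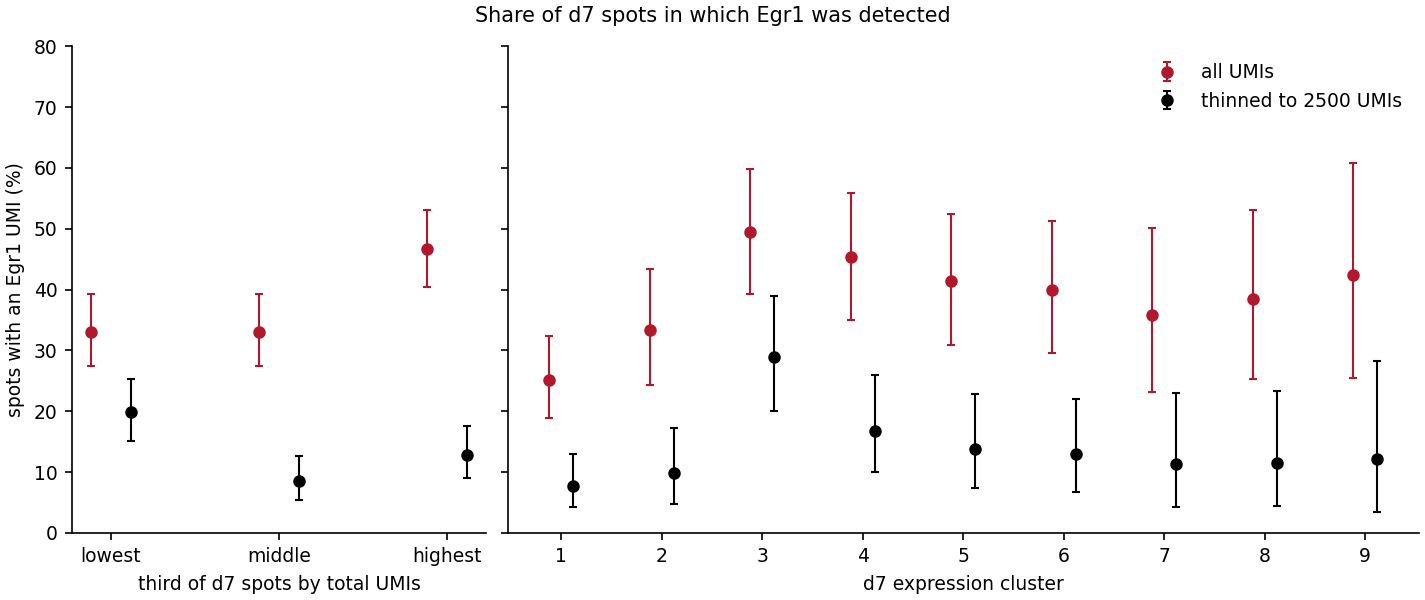
Share of d7 spots with at least 1 Egr1 UMI (percent, vertical axis) in 3 bins of total UMIs (left panel) and in 9 expression clusters (right panel), with all UMIs (red) and after thinning to 2500 (black). Bars are exact 95% intervals over spots; cluster 3 lies highest on both measures, and the black points stand far below the red ones in every stratum.

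Across the transcriptome the 2 groups of spots were close to each other. Of 4921 features with at least 50 thinned UMIs, 49 were higher in Egr1-detected spots (0.996%) and 67 were lower (1.36%) by a rule of size: a ratio of CPM of at least 1.5 or its inverse, an interval outside 1, and the same side of 1 in each of the 3 bins. With no condition on size or bins, 5.12% of the features had an interval outside 1. Exact 95% intervals leave out at most 5% from counting error alone, and less at low counts, so 5% is an upper bound and not an expected share. Among 494 features with at least 500 thinned UMIs, where counting error is small, 9.11% had an interval outside 1. Of these 494, 1 passed 1.5-fold, Hba-a2, and the spread of the log2 ratios was 0.11 (SD over features). In the d4 section, treated in the same way, the calls were 121 higher (2.33%) and 83 lower (1.6%) of 5187, and 10.3% of features had an interval outside 1. Among its well-counted features 39.4% had an interval outside 1, and the spread was 0.247.

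The list of called genes at d7 depended on which molecules the thinning kept. Of the 49 genes called higher, Csk and Clu were also called with both other random draws, and of the 67 called lower none was. With all UMIs and no thinning, 72 of 9082 features were higher (0.793%) and 97 lower (1.07%), of which 3 and 2 were among the calls at 2500 UMIs. Clu alone passed in all 3 draws and with all UMIs.

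**Figure D2:**
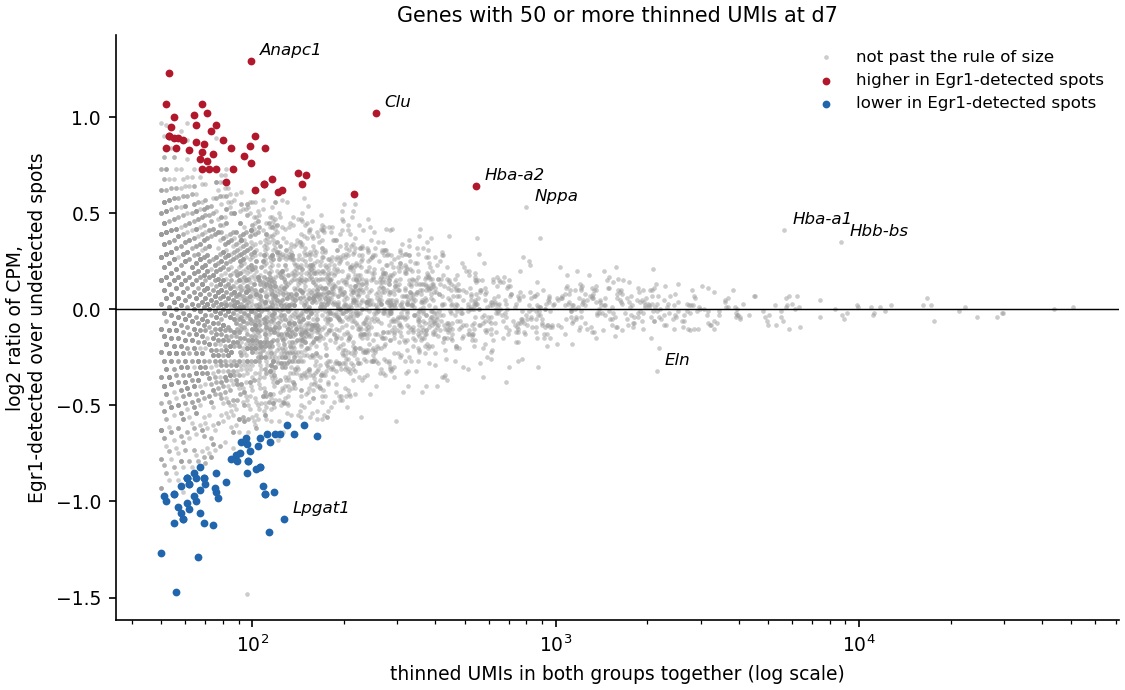
Log2 ratio of CPM in Egr1-detected over undetected spots (vertical axis) against the thinned UMIs of both groups together (log scale) for the 4921 features tested at d7; red and blue points passed the rule of size. Most called genes sit at low counts, where ratios scatter most, and genes with the highest counts lie near 0 apart from Hba-a1, Hbb-bs and Eln.

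Clu, which encodes clusterin, a secreted chaperone induced by tissue stress, was the one gene that held across the settings above. On GRCm38 the gene lies at chr14:65968483-65981547 on the plus strand. In the thinned counts it had 140 UMIs in Egr1-detected spots, against 115 in the larger undetected group, which is 220 and 109 CPM and a ratio of 2.02 (1.57 to 2.61). It was above 1 in each bin, at 1.97, 1.81 and 2.15 in shallow, middle and deep spots. At least 1 thinned Clu UMI was present in 27.6% of detected and 17.9% of undetected spots.

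With all UMIs the Clu ratio was smaller, 1.58 (1.38 to 1.80), from 453 UMIs in detected spots and 438 in undetected spots, and 1.61, 1.18 and 1.76 in the 3 bins. Single detected spots held 0 to 43 Clu UMIs with a median of 1, and single undetected spots 0 to 28 with a median of 0. The groups thus overlapped widely. Of all d7 Clu UMIs, 24.5% lay in 10 spots, 7 of them Egr1-detected, and 32.4% lay in cluster 7. The intervals cover counting error only and not this unevenness between spots. The ratio was 1.59 for spots with 1 Egr1 UMI and 1.55 for those with more (interval above 1, up to 1.9), each against spots with 0. Clu was also a leading gene of cluster 3, which had the most Egr1 UMIs of the 9, 68, so it was read within clusters: the ratio was above 1 in 9 of 9, from 1.01 to 2.16, with the interval above 1 in 3, and the combined (Mantel-Haenszel) ratio over clusters was 1.47 (1.29 to 1.68). In cluster 3 Clu stood at 435 CPM in detected and 276 CPM in undetected spots, and in cluster 7 at 1040.7 and 681 CPM. When Egr1 was called in the thinned counts instead, with 106 detected spots, the log2 ratio was 0.43, against 1.02 as reported, and Clu was no longer called.

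The same contrast in the other sections, which the d7 rule did not use, also had Clu higher. In thinned counts the d1 ratio was 3.16 (2.47 to 4.00), the d4 ratio 3.17 (2.64 to 3.81), the d7 ratio 2.02 and the d14 ratio 1.44 (1.07 to 1.91). The detected groups of d1 and d14 were small, 41 of 405 and 45 of 1044 spots, and the sections are different hearts at different ages, so their order has no replicate check.

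Nppa, the gene of the precursor of atrial natriuretic peptide, which the atria, trabeculae and loaded ventricle make, had a higher pooled level in detected spots but not in every bin. With all UMIs it stood at 605 CPM in Egr1-detected and 421 CPM in undetected spots, a ratio of 1.44 (1.33 to 1.55). The ratio was 0.921 in the shallow bin, 1.02 in the middle bin and 1.93 in the deep bin, so Nppa did not pass the rule of size, and the difference lay in the deep spots. When Egr1 was called in the thinned counts instead, the log2 ratio was -0.22, against 0.53 as reported in thinned counts. It was larger for spots with 2 or more Egr1 UMIs, 1.77 (1.59 to 1.98), than for those with 1, 1.32. Single detected spots held 0 to 260 Nppa UMIs and single undetected spots 0 to 207, with a median of 0 in both, and 10 spots, of which 5 were Egr1-detected, held 44.5% of all Nppa UMIs at d7. Within clusters the ratio ran from 0.835 to 10.8 and was above 1 in 7 of 9, with the interval above 1 in 5 and below 1 in none. The combined (Mantel-Haenszel) ratio over clusters was 1.27 (1.18 to 1.37). As for Clu, these intervals do not cover the unevenness between spots. In cluster 3, whose leading genes include Nppa, the detected spots had 1560.8 CPM and the undetected spots 1502.1 CPM. In thinned counts the d1 ratio was 1.52 (1.3 to 1.78), the d4 ratio 2.89 (2.75 to 3.03), the d7 ratio 1.45 (1.26 to 1.67) and the d14 ratio 2.55 (2.35 to 2.77).

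**Figure D3:**
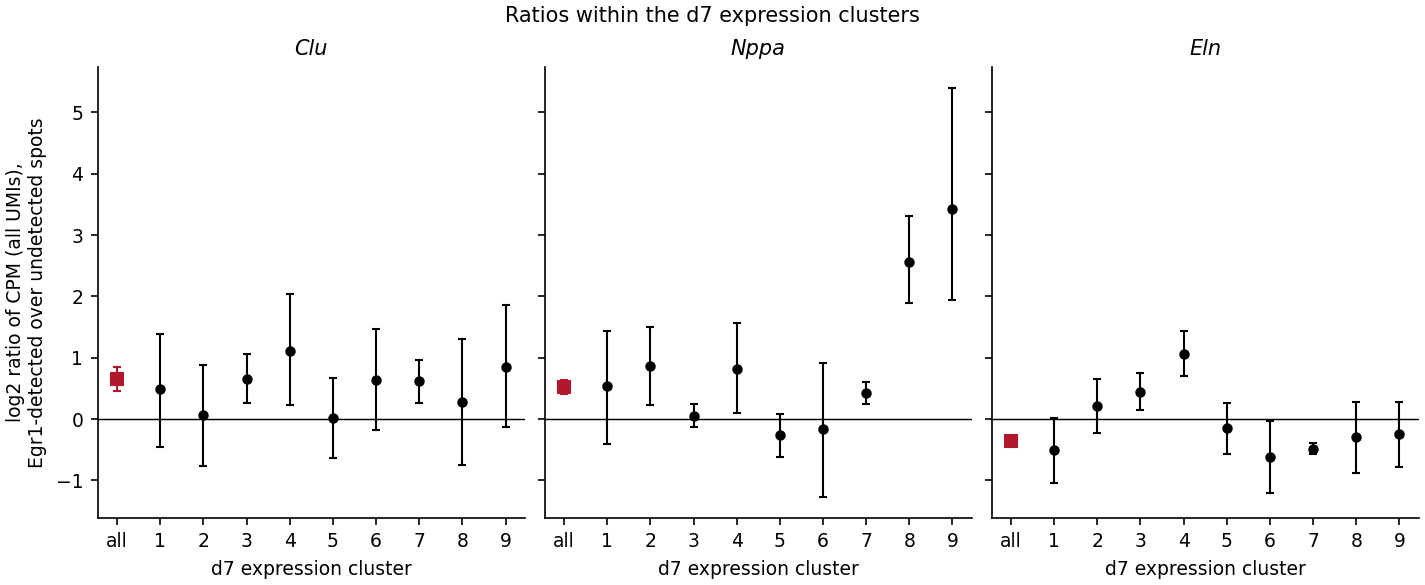
Log2 ratio of CPM with all UMIs in Egr1-detected over undetected spots for Clu, Nppa and Eln, over all d7 spots (red squares) and within each of 9 expression clusters (black points); bars are exact 95% intervals. Clu lies at or above 0 in every cluster, Nppa is near 0 in cluster 3 and far above it in clusters 8 and 9, and Eln is above 0 in clusters 2, 3 and 4 and below it in the other 6.

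Other atrial and endocardial genes were followed as markers of chambers whose lining could be among the detected spots. The 11 atrial genes, of which 3 reached 50 thinned UMIs and none passed, summed to 720 CPM in detected and 548 CPM in undetected spots, a ratio of 1.32 (1.16 to 1.49) that holds Nppa itself and ran from 0.986 in the shallow to 1.86 in the deep bin. Myl4, an atrial myosin light chain, was at 33.6 CPM in detected and 39.9 CPM in undetected spots with all UMIs, a ratio of 0.842 (0.625 to 1.13). The 8 endocardial and trabecular genes were rare and summed to 112 CPM in detected and 71.9 CPM in undetected spots, a ratio of 1.55 (1.11 to 2.18), above 1 in all 3 bins. Of the 8, 1 was at 0 and 1 reached 50 UMIs, Cgnl1. The sum rested on 71 thinned UMIs in detected and 76 in undetected spots. Npr3 was at 2.49 (1.14 to 5.68) in thinned counts and 1.3 (0.796 to 2.1) with all UMIs. In the same order, Plvap was at 1.87 (0.901 to 3.92) and 1.12 (0.728 to 1.7), and Cgnl1 at 1.11 (0.633 to 1.91) and 1.35 (0.962 to 1.89). The summed level of the 8 was 190 CPM in cluster 3 and 186 CPM in cluster 7, and 28.8 to 60.1 CPM in the other clusters. Whether these markers have a part in the Clu and Nppa differences was not tested.

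Immediate early genes, the group that Egr1 belongs to, showed no shared difference. Of 36 such genes other than Egr1, 18 reached 50 thinned UMIs and none passed the rule in either direction, beside 0.996% higher and 1.36% lower over all features. Their median log2 ratio was -0.09, and that over all features was 0.00. Summed, they stood at 1589.9 CPM in Egr1-detected and 1576.3 CPM in undetected spots, a ratio of 1.01 (0.932 to 1.09), with 1.06, 0.979 and 0.993 in the 3 bins. 3 members had no thinned UMI at all.

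With all UMIs, 29 of the 36 had at least 30 UMIs. Of these, 18 had a ratio above 1, 3 had an interval above 1 and none had one below. The 3 were Junb, Egr3 and Ier2. Junb, a partner of Fos in the AP-1 factor, had 51 UMIs in detected and 49 in undetected spots, a ratio of 1.59 (1.05 to 2.40), with 2.16 (1.19 to 3.78) for spots with 2 or more Egr1 UMIs. Egr3, a close relative of Egr1 with the same type of DNA-binding domain, had 19 UMIs in detected and 12 in undetected spots, 2.42 (1.11 to 5.46). Ier2, a small nuclear immediate early protein, had 97.1 CPM in detected and 77.7 CPM in undetected spots (interval of the ratio 1.04 to 1.5), but a ratio of 0.842 in the middle bin. These counts are small. The 3 of 29 are 10.3%, beside 263 of 9082 features with at least 50 UMIs (2.9%) that had an interval above 1 with all UMIs, and the members were tallied from a lower minimum of 30.

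With all UMIs, the best-known companions of Egr1 had ratios near 1. Fos had 23.2 CPM in detected and 22.9 CPM in undetected spots, a ratio of 1.01 (0.695 to 1.46). Jun, the other core AP-1 gene, had 63.5 and 53.6 CPM in these groups, 1.19 (0.944 to 1.49). The intervals of these and most other members include 1 and leave room on both sides of it, so a small shared change is not detectable at this depth. Atf3, a stress-induced factor, had a ratio of 1.33 (0.955 to 1.84), and Nr4a1, an orphan nuclear receptor, 1.09 (0.924 to 1.28). The intervals of the feedback phosphatases include 1, with Dusp1 at 0.932 (0.8 to 1.08), Dusp5 at 1.02 (0.68 to 1.53) and Dusp6 at 0.746 (0.547 to 1.01). Klf2, an endothelial flow-sensitive factor and one of the members with most UMIs, stood at 0.934 (0.823 to 1.06).

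**Figure D4:**
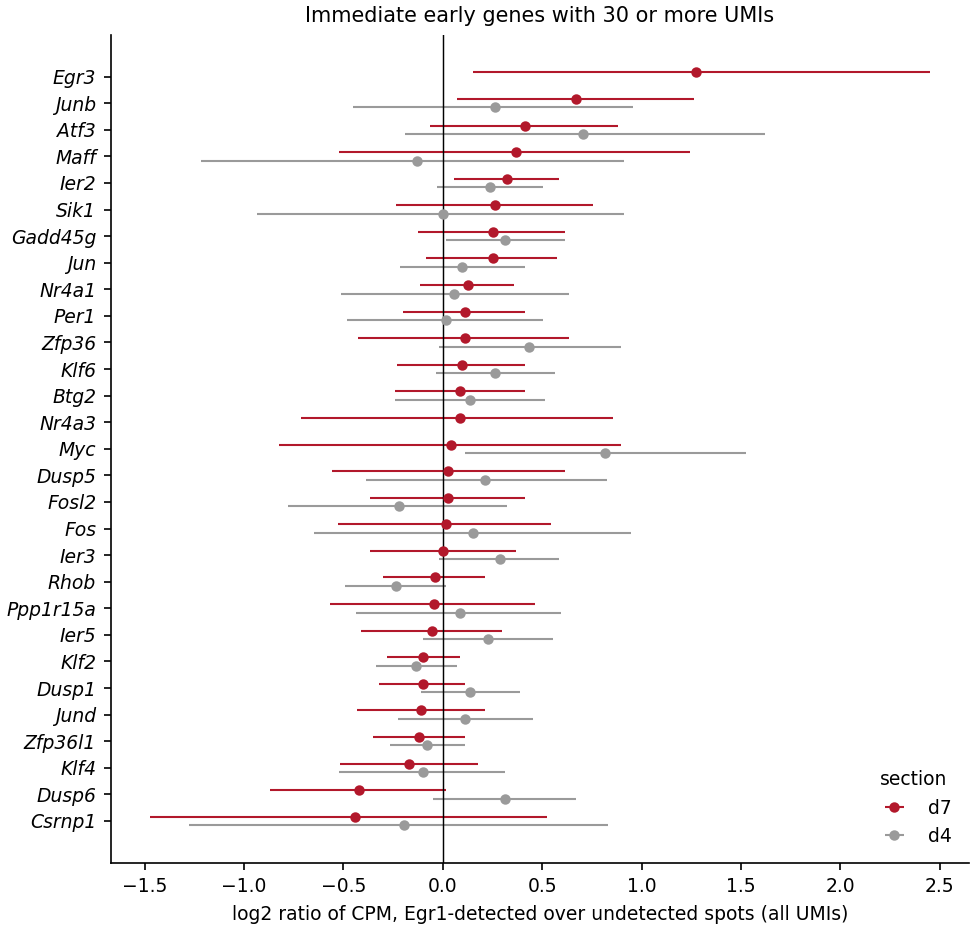
Log2 ratio of CPM with all UMIs in Egr1-detected over undetected spots for 29 immediate early genes with at least 30 UMIs at d7 (red), with the same genes at d4 where they had as many (grey); bars are exact 95% intervals. Egr3, Junb and Ier2 have red intervals above 0, and the others cross it.

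The promoters of this group carry more Egr-type motifs than promoters in general, and also more of the other motifs searched, given below. The motif GCGNGGGCG, where N is any base, was searched on both strands in the 250 bases before each RefSeq start and was found for 1440 of 27025 genes (5.33%), for 431 of 3955 tested genes with a window (10.9%) and for 10 of 30 immediate early genes (33.3%): Btg2, Fosb, Fosl2, Klf2, Klf4, Maff, Nr4a1, Nr4a2, Socs3 and Zfp36. 2 are shown with their values, since they have many UMIs and a match, beside Nppa, which has none. Sequences are RefSeq's, build GRCm38.p6, 5′ to 3′ on the gene's strand and ending at the base before the start, with matches to the Egr motif or to the cyclic AMP response element TGACGTCA in capitals.
Btg2, chr1:134079156-134079405, minus strand: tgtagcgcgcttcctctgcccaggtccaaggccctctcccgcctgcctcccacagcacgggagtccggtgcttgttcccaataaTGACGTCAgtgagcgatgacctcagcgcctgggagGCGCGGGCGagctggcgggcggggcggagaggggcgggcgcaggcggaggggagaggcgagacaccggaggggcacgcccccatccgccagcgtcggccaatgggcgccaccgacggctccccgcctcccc
Nr4a1, chr15:101266596-101266845, plus strand: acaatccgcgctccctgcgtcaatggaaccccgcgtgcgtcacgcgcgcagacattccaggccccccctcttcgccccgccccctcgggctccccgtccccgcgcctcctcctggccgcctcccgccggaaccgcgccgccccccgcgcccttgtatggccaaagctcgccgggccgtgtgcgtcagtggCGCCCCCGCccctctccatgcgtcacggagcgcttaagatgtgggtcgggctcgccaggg
Nppa, chr4:148000472-148000721, plus strand: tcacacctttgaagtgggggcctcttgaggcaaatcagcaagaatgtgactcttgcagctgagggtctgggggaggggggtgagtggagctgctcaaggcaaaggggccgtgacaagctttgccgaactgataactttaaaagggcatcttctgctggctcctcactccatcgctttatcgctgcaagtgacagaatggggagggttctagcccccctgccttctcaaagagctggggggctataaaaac
In the Btg2 window the Egr motif lies 131 to 123 bases before the start and the cyclic AMP response element 166 to 159 bases before it. In the Nr4a1 window the Egr motif lies 60 to 52 bases before the start, read on the opposite strand.

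With all UMIs, the genes with the motif did not share a direction. Btg2, an antiproliferative gene induced by p53 and serum, had 62.2 CPM in detected and 58.6 CPM in undetected spots, a ratio of 1.06 (0.847 to 1.33), and Nr4a1 had 115 and 105 CPM in these groups. Fosl2 was at 1.02 (0.777 to 1.33), Zfp36, which encodes an RNA-binding protein that destabilizes AU-rich messages, at 1.08 (0.744 to 1.55) and Klf4 at 0.889 (0.698 to 1.13). Among called genes with a window, 3 of 42 called higher (7.14%) and 6 of 54 called lower (11.1%) held the motif, against 10.9% of tested genes. The cyclic AMP response element was found in 3 of 42 (7.14%) and 4 of 54 (7.41%), against 3.29% of tested genes. Among immediate early genes it was found in 4 of 30 (13.3%). The serum response factor's CArG box was found in 0 of 42 and 1 of 54 (1.85%), against 1.77% of tested genes and 3 of 30 immediate early genes (10.0%). The excess among immediate early genes is thus not particular to the Egr motif. A match is a run of letters and not a bound site.

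Corepressors, upstream factors and genes reported elsewhere as Egr1 targets also lay near 1 as a group. Of 23, 12 were tested and none passed, beside 0.996% higher and 1.36% lower over all features, the background of every list here. The sum was 1061.5 CPM in detected and 1007.1 CPM in undetected spots, a ratio of 1.05 (0.956 to 1.16). Of the 12, 1 had a thinned interval above 1 and none had one below, with log2 ratios from -0.17 to 0.89. Ccn2, a matricellular growth factor, was not that member, at 1.16 (0.925 to 1.45) in thinned counts. With all UMIs Ccn2 had 211 CPM in detected and 179 CPM in undetected spots. That is a ratio of 1.18 (1.04 to 1.33), above 1 in all 3 bins, and 1.71 (1.53 to 1.91) at d4.

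Senescence genes, the subject of the series title, had ratios near 1 as a group. Of 16 cell cycle inhibitors and p53 genes, 7 were tested, with a median log2 ratio of -0.03 and a summed ratio of 0.984 (0.868 to 1.11). Cdkn1a, which encodes the p21 inhibitor, was named for the series question rather than by the rule for named genes. With all UMIs it had 59 UMIs in detected and 111 in undetected spots, 26.8 and 33.0 CPM. That is a ratio of 0.811 (0.581 to 1.12), and 1.04 (0.776 to 1.39) at d4. In thinned counts its d7 ratio was 0.978 (0.534 to 1.75). Cdkn1b, which encodes the p27 inhibitor, was likewise named outside that rule. With all UMIs it had 22.7 CPM in detected and 18.2 CPM in undetected spots, with a ratio between 0.843 and 1.85. In thinned counts it was higher, with 23 UMIs in detected and 17 in undetected spots, 36.2 and 16.1 CPM. That is a ratio of 2.25 (1.15 to 4.49), with 1.76 in the shallow and 1.58 in the middle bin. In the deep bin the undetected spots held no thinned Cdkn1b UMI. Cdkn1b did not reach 50 thinned UMIs and was not among the 7 tested. 1 member passed, Btg1, an antiproliferative gene, lower at 40.9 CPM in detected and 72.8 CPM in undetected spots, 0.562 (0.345 to 0.886), but its log2 ratio was 0.02 in the second random draw and with all UMIs it was at 0.861 (0.681 to 1.08). Of 27 secreted factors of senescent cells, 7 were tested and none passed. Their sum gave 0.990 (0.915 to 1.07), against 1.91 at d1, 1.35 at d4 and 1.45 at d14. Igfbp7, the member with most UMIs, was at 657 CPM in detected and 648 CPM in undetected spots with all UMIs.

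Proliferation genes were close to 1 in sum, with 18 of 36 tested, a summed ratio of 0.990 (0.905 to 1.08) and 1 gene called, Mcm6, a subunit of the replicative helicase, which was lower with 16 thinned UMIs in detected and 49 in undetected spots (0.543, 0.288 to 0.971), and 0.706 (0.528 to 0.935) with all UMIs. The agrin and Yap list had 12 of 16 tested, a summed ratio of 0.969 (0.915 to 1.03) and 1 call, the Hippo kinase Lats2, lower at 0.491 (0.243 to 0.929), and 0.723 (0.527 to 0.982) with all UMIs. Agrn, which encodes agrin and was also named outside the rule, was at 96.2 CPM in detected and 99.7 CPM in undetected spots with all UMIs. In thinned counts Agrn was at 81.8 and 112 CPM, a ratio of 0.733 (0.518 to 1.02), below 1 in each bin. Its thinned ratio combined over clusters was 0.711 (0.510 to 0.990), and with all UMIs 0.951 (0.799 to 1.13). Dag1, which encodes the dystroglycan receptor of agrin, was at 243 and 234 CPM in these groups with all UMIs. Heat shock genes, the chaperones of cell stress, were at 6213.3 CPM in detected and 6137 CPM in undetected spots, 1.01 (0.973 to 1.05), with none of 15 called.

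The labelled tissue was plain in both groups. The 25 mature cardiomyocyte genes were all tested and summed to 109633.9 CPM in Egr1-detected and 111206.6 CPM in undetected spots, a ratio of 0.986 (0.977 to 0.995), and 28 respiratory chain genes were at 1.00 (0.989 to 1.01). Of 10 lung epithelium genes, 8 had no thinned UMI. UMIs of 8 skeletal muscle genes lay in 70 of the 771 spots, and without those spots 59 genes were called higher and 60 lower. The immature cardiomyocyte list, of which 10 genes were tested and Nppa is one, summed to a ratio of 1.06 (1.02 to 1.11), which ran from 0.870 in the shallow to 1.26 in the deep bin, and to 1.5 (1.46 to 1.55) at d4. Without Nppa, a setting added after the values were seen, it was at 1.03 (0.982 to 1.08) at d7 and at 1.04 (1.00 to 1.08) at d4. Myh7, the slow myosin heavy chain, had 1343.2 CPM in detected and 1184.6 CPM in undetected spots with all UMIs, 1.13 (1.08 to 1.19), and Ankrd1, a stretch-responsive titin partner, had 1958.2 and 1968.1 CPM, 0.995 (0.957 to 1.03).

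Matrix genes summed to a ratio near 1 at d7 and to higher ones in each of the other sections. At d7, none of 22 tested matrix genes passed, beside 0.996% higher and 1.36% lower over all features, and their median log2 ratio was 0.06. Their sum was 12607.5 CPM in detected and 12467.9 CPM in undetected spots, a ratio of 1.01 (0.983 to 1.04). It was 1.19 in the shallow, 0.990 in the middle and 0.984 in the deep bin. At d4, 11 of 22 were higher, beside 2.33% of all features, with a median of 0.62 and a summed ratio of 1.55 (1.51 to 1.60). The summed ratio was 1.69 (1.57 to 1.81) at d1 and 1.61 (1.53 to 1.7) at d14, from 41 and 45 detected spots. Col1a1, a chain of type I collagen, was at 1.09 (1.03 to 1.16) at d7 and 1.63 (1.55 to 1.71) at d4 with all UMIs. Postn, the matricellular protein of activated fibroblasts, was at 0.977 (0.922 to 1.03) at d7 and 1.71 (1.63 to 1.80) at d4 with all UMIs. In thinned counts its d7 ratio was 1.11 (1.00 to 1.22), with 1.52, 1.05 and 0.891 in the 3 bins. Of 14 tested fibroblast genes none passed at d7 and 4 were higher at d4, against the same shares over all features. The fibroblast sum at d7 was at 1.03 (0.985 to 1.08), with 1.19, 1.01 and 1.03 in the 3 bins. It was at 1.63 (1.43 to 1.84) at d1, 1.48 (1.41 to 1.56) at d4 and 1.47 (1.37 to 1.57) at d14. Macrophage genes, with 5 tested, summed to 549 CPM in detected and 485 CPM in undetected spots at d7, 1.13 (0.985 to 1.3), and endothelial genes to 3072.9 and 3283.2 CPM, 0.936 (0.885 to 0.990). In a spot, fewer cells of a type and less RNA per cell cannot be told apart. The detected spots of d4 were also deeper, with a median of 10607 UMIs against 7142.5 in its undetected spots, and time, age and animal cannot be told apart between the sections.

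**Figure D5:**
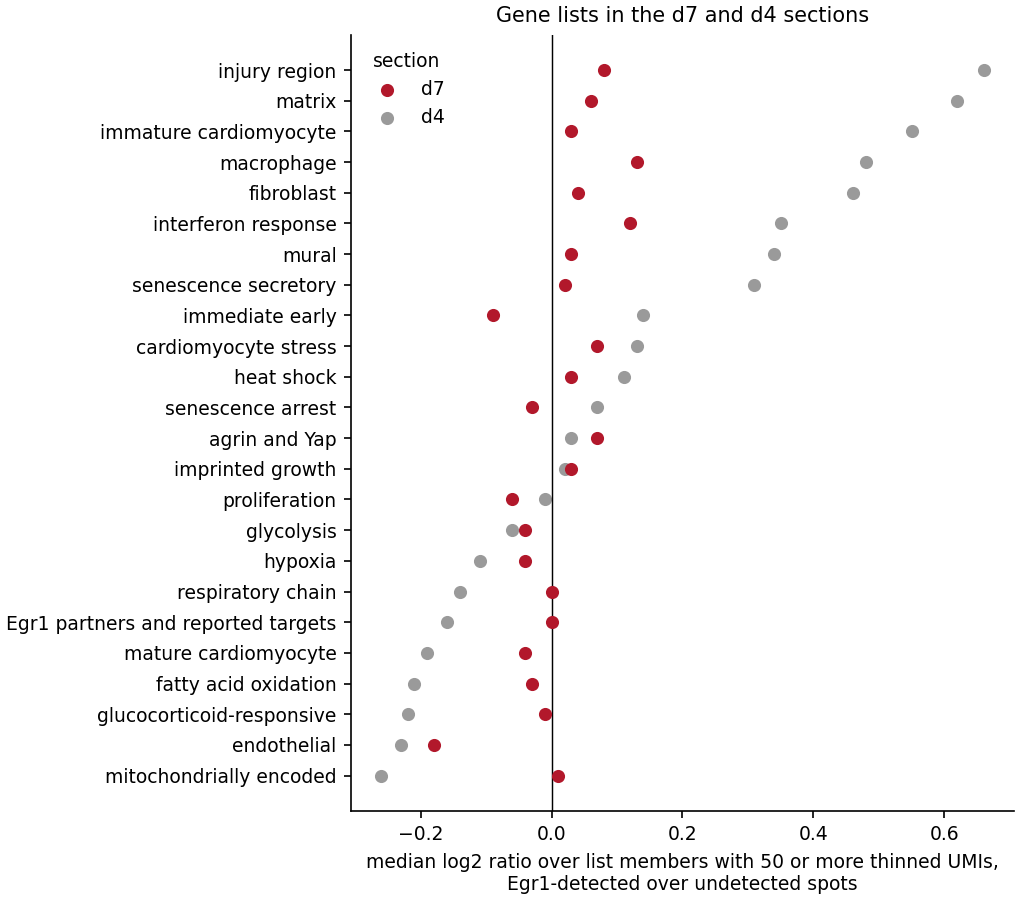
Median log2 ratio of Egr1-detected over undetected spots for each gene list with at least 5 tested members, in the d7 (red) and the d4 section (grey). Red points lie between -0.18 and 0.13, and grey points between -0.26 and 0.66, with the injury region and matrix lists at the top.

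Haemoglobin RNA, the mark of red blood cells in the section, had a higher pooled level in Egr1-detected spots in all 3 bins. The 8 genes summed to 10912.3 CPM in Egr1-detected and 8369.6 CPM in undetected spots, a ratio of 1.3 (1.26 to 1.35), with 1.48, 1.23 and 1.17 from the shallow to the deep bin. In the other sections the summed ratio was 0.763 (0.608 to 0.947) at d1, 0.863 (0.817 to 0.911) at d4 and 1.26 (1.17 to 1.34) at d14. With all UMIs, spots with 2 or more Egr1 UMIs were nearer to those with 0, at 1.1 (1.05 to 1.16) for Hba-a1 and 1.02 (0.975 to 1.06) for Hbb-bs, a beta globin. Hba-a2, an alpha globin, passed the rule at 415 CPM in detected and 266 CPM in undetected spots, 1.56 (1.32 to 1.85), and with all UMIs it was at 1.22 (1.11 to 1.34). Hba-a1 and Hba-a2 are near-identical copies, so their reads may be split. Single spots had a median of 12 Hba-a1 UMIs if detected and 11 if not, with maxima of 962 and 485. For Hbb-bs the medians were 19 and 17. For each gene 10 spots, 4 of them Egr1-detected, held much of the RNA, 22.8% for Hba-a1 and 22.7% for Hbb-bs. Within clusters the direction was mixed: Hba-a1 was above 1 in 5 of 9, with 2.34 (2.21 to 2.48) in cluster 7 and 0.731 (0.662 to 0.805) in cluster 1. Hbb-bs was above 1 in 4 of 9, with the interval above 1 in 3 and below 1 in 4. Haemoglobin genes were left out of the CPM denominator, so they do not move the other ratios.

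Eln, which encodes tropoelastin, the core of elastic fibres, was lower in Egr1-detected spots by less than the rule of size. With all UMIs it had 945 CPM in detected and 1214.7 CPM in undetected spots, a ratio of 0.778 (0.737 to 0.820), and 0.939, 0.909 and 0.796 in the 3 bins. Single detected spots held up to 283 Eln UMIs and single undetected spots up to 421, with a median of 2 in both. Of all d7 Eln UMIs, 73.7% lay in cluster 7 and 37.0% in 10 spots, 3 of them Egr1-detected. Within cluster 7 the ratio was 0.715 (0.671 to 0.762). Without cluster 7 the log2 ratio turned to 0.49, against -0.32 as reported in thinned counts, and within clusters 3 and 4 it was above 1, at 1.36 (1.11 to 1.68) and 2.08 (1.62 to 2.70).

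The genes with the largest ratios past the rule were of many kinds, and their counts were low. Among the 12 highest, Anapc1, a subunit of the anaphase-promoting complex, had 59 thinned UMIs in Egr1-detected and 40 in undetected spots, 92.8 and 37.8 CPM, a ratio of 2.45 (1.61 to 3.76). With all UMIs its ratio was 1.44 (1.15 to 1.81). Bcat2, the mitochondrial branched-chain aminotransferase, was at 2.34 (1.31 to 4.25) and, with all UMIs, at 1.66 (1.23 to 2.25), where it again passed the rule. Csk, the kinase that restrains Src family kinases, was at 1.91 (1.17 to 3.12) and at 1.35 (1.03 to 1.76) with all UMIs. The others were Bfar, Tcf3, Clu, Xrn2, Atp6v1a, Tars2, Usp24, Trappc12 and Arhgef2, between 1.87 and 2.11. Their all-UMI ratios ran from 1.08 for Bfar to 1.58 for Clu.

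Among the 12 lowest, Kat14, a histone acetyltransferase subunit, had 10 thinned UMIs in detected and 46 in undetected spots, a ratio of 0.362 (0.163 to 0.726), and 0.729 (0.495 to 1.06) with all UMIs. Nup62, a nuclear pore protein, was at 0.408 (0.204 to 0.759) and at 0.758 (0.580 to 0.986) with all UMIs. Lpgat1, a lysophospholipid acyltransferase, had the most counts of the 12, 28 in detected and 99 in undetected spots, 0.470 (0.298 to 0.722), and 0.771 (0.622 to 0.952) with all UMIs. Notch4, a Notch receptor of endothelium, was at 0.462 (0.242 to 0.831), at 0.752 (0.560 to 1.00) with all UMIs and at 0.398 (0.187 to 0.753) for spots with 2 or more Egr1 UMIs. Fibin, Snd1, Tmx1, Ep400, Mfsd11, Ndst1, Heca and Vps37b were between 0.416 and 0.480, and each was nearer to 1 with all UMIs, from 0.748 for Tmx1 to 0.938 for Mfsd11.

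Few genes were called on the same side at d7 and at d4. Of the 49 genes called higher at d7, 41 were tested at d4 and 22 had a ratio above 1 there, beside 49.9% over all features. 2 were called higher at d4, where 2.33% of all features were, Clu and Nomo1, an endoplasmic reticulum membrane protein. They are 4.08% of the d7 list and 1.65% of the d4 list. Tars2 was called the other way. Of the 67 called lower, 61 were tested at d4 and 26 had a ratio below 1, beside 50.1% over all features. At d4, where 1.6% of all features were called lower, Nup62, Heca and Atp6v0a2 were called lower too, 4.48% of the d7 list and 3.61% of the d4 list. Ankrd13c, lower at d7, was called higher at d4. Of the genes called higher at d4, 104 were tested at d7, where 57 had a ratio above 1 and the median log2 ratio was 0.05. In 1485 genes with at least 500 UMIs in both sections, 47 had intervals on the same side of 1 and 21 on opposite sides. Past a ratio of 0.8 or its inverse in both sections, 3 lay on the same side, Nppa, Clu and Ltbp3, and 1 on opposite sides, Eln. Ltbp3, a latent TGF-beta binding protein, was at 1.31 (1.11 to 1.56) at d7 and 1.45 (1.26 to 1.68) at d4 with all UMIs.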

How the data were processed

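The deposited files hold unnormalized UMI counts for each gene in each spot. Per the file headers, the authors' software was Space Ranger 1.3.0. The submitters' processing notes name mm10 and Seurat 4.1.1 without a role. How the listed spots were selected is not given in the sources used here, and images and positions were not used. The sections held 3419864 to 6358894 UMIs.

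Of 776 d7 spots, 5 with under 2500 UMIs were left out. Each spot was thinned without replacement to 2500 UMIs (1 fixed seed), and counts were summed over the Egr1-detected and the undetected spots. CPM used the total without Egr1, 8 haemoglobin and 13 mitochondrially encoded genes. Ratios carry conditional binomial (Clopper-Pearson) 95% intervals. This left totals of 635889 thinned UMIs in the detected and 1057518 in the undetected group, which set the precision. The 38 symbols on several IDs were kept apart by ID. Array barcodes come from a common list, so 248, 422 and 754 were shared with d1, d4 and d14, and mark array places rather than cells. No doublet caller was run.

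Clusters came from scanpy 1.11.5 (Leiden, igraph 0.11.9, resolution 0.8, 15 components, 15 neighbours, 2000 variable genes), without 169 genes of 7 outcome lists and Egr1. Further tools were Python 3.11.15, numpy 2.4.6, scipy 1.17.1, R 4.3.3 and edgeR 4.0.16, the last for TMM factors only. Methods were tested on simulated data. Gene positions are from GENCODE vM21, GRCm38.

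Genes named were the 12 highest and 12 lowest called, immediate early genes, called members of 40 gene lists and up to 4 abundant members of each. Genes marked as outside this rule, and Nppa, Eln, Egr3, Junb, Ltbp3, the globins and those of the last section, were singled out after their values were seen. The groups, lists and alternatives were chosen with earlier results of these data known.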

Additional observations from a re-analysis of the deposited data

Results flagged for a closer look

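With all UMIs, Eln was on opposite sides of 1 in the d7 and d4 sections. At d7 its ratio of Egr1-detected over undetected spots was 0.778 (0.737 to 0.820), with 945 CPM in detected and 1214.7 CPM in undetected spots. At d4 it was 1.99 (1.89 to 2.10), with 1416.5 CPM in detected and 711 CPM in undetected spots. It was the 1 of 1485 genes with at least 500 UMIs in both sections that passed a ratio of 0.8 or its inverse in opposite directions. The difference between the sections was not tested, since each is 1 section of 1 heart. At d7 73.7% of Eln UMIs lay in the 53 spots of cluster 7, and without that cluster the d7 log2 ratio was 0.49 in thinned counts.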

How the results depend on the processing

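No paired analysis was possible because each time point has 1 section, and no replicate could be left out. Depth limits the contrast: most Egr1-detected spots hold 1 Egr1 UMI, and at 2500 UMIs the detected share was 13.7%. The count of genes called higher was 82 in spots with 5000 or more UMIs, where the immediate early median log2 ratio was 0.12, and 75 with the fold eased to a ratio of 0.8 or its inverse. Higher and lower counts were 107 and 105 with a gene minimum of 20 UMIs, 14 and 19 with 100, 153 and 127 with none, and 7 and 17 at 2-fold. With the other settings the counts stayed within 1.5 times those reported. Among called genes, log2 ratios turned to -0.03 for Arhgef2, 0.02 for Btg1, 0.04 for Mfsd11 and 0.19 for Tmx1 with the second random draw, to -0.10 for Tars2, 0.06 for Snd1 and 0.27 for Ndst1 with the third, and to 0.03 for Ndst1 in spots with 5000 or more UMIs. The cause of these changes was not tested. Clu was above 0 in every setting, from 0.43 to 1.12. The immature cardiomyocyte sum without Nppa moved to 1.04 at d4. Nppa ran from -0.22, with Egr1 called in thinned counts, to 1.04, without cluster 7. Eln ran from -1.01, for 2 or more Egr1 UMIs, to 0.49, without cluster 7.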

Other observations

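Osr1, Sfrp2 and Wfdc18, found chiefly in cluster 7, were, like Eln, lower in Egr1-detected spots, by values seen before they were singled out. They do not stand for the genes of that cluster. The injury list, in which cluster 7 was richest, summed to a ratio of 1.05 (1.01 to 1.08) in thinned d7 counts. Of its 12 tested members, 2 had an interval above 1 and none had one below. With all UMIs, Osr1, a factor of mesenchymal progenitors, had 34 UMIs in detected and 122 in undetected spots, 15.4 and 36.3 CPM, a ratio of 0.425 (0.282 to 0.626). Sfrp2, a secreted Wnt modulator of fibroblasts, had 71 and 194 UMIs in these groups, 0.558 (0.419 to 0.736). Wfdc18, a secreted protein with a whey acidic protein domain, had 102 and 240 UMIs, 0.648 (0.509 to 0.821). In thinned counts the intervals of Osr1 and Sfrp2 included 1, at 0.569 (0.278 to 1.09) and 0.675 (0.419 to 1.06). Thinned Wfdc18 was at 0.624 (0.405 to 0.940). In the shallow, middle and deep bins the ratio was 0.601, 0.473 and 0.397 for Osr1 and 0.619, 0.715 and 0.551 for Sfrp2, but 1.42, 0.639 and 0.401 for Wfdc18, which was above 1 in the shallow spots. For spots with 2 or more Egr1 UMIs the ratios were 0.0965 (0.0116 to 0.356) for Osr1, 0.304 (0.143 to 0.57) for Sfrp2 and 0.0982 (0.0265 to 0.255) for Wfdc18. They rest on 2, 10 and 4 UMIs of these genes in such spots. Cluster 7 held 22 Egr1 UMIs in its 19 detected spots, so few of its spots had 2 or more, and no trend with Egr1 count can be read. Cluster 7 held 88.5% of Osr1, 74.7% of Sfrp2 and 95.6% of Wfdc18 UMIs, and 10 spots held 56.4%, 46.0% and 59.4%, so few spots set these ratios. At d4 Sfrp2 was on the other side, 1.60 (1.26 to 2.04), Osr1 was at 1.67 (0.980 to 2.85) and Wfdc18 at 1.75 (0.905 to 3.45).

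With all UMIs, Csf1, the growth factor of macrophages, was lower without such a concentration. It had 26 UMIs in detected and 80 in undetected spots, a ratio of 0.496 (0.306 to 0.780), with 9.43% of its UMIs in cluster 7, 20.8% in 10 spots and 0.661, 0.606 and 0.380 in the 3 bins. At d4 it was at 1.46 (1.01 to 2.12).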
